A study of Xenopus laevis with 40 samples.

Results

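Gluconeogenesis was followed through 9 gene copies among the 51017 gene IDs of the count files: pck1.L, pck1.S, pck2.S, pc.L, pc.S, fbp1.L, fbp1.S, g6pc.L and g6pc.S. They are all IDs whose deposited symbol, without the L or S suffix of the homeologous chromosome, is pck1, pck2, fbp1, g6pc, g6pc1 or pc, and 5 of those 6 symbols were found. pck2.L was not analysed here. The members were chosen by the rise in counts of both pck1 copies from st25 to st32 in uninjected explants. That step, and any comparison of pck1 with the uninjected explants of those stages, is therefore described without a test.

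The samples were Xenopus laevis animal caps, explants from the animal side of blastula embryos that develop into a mucociliary epidermis in culture. Wild-type embryos had received 4 injections into the animal hemisphere at the four-cell stage or none. To raise Notch signalling, nicd mRNA (120 ng/ul, the Notch intracellular domain) was injected. To block it, suh-dbm mRNA (100 ng/ul) was injected, with dnmcidas mRNA, a dominant-negative form of multicilin, added at 100 ng/ul in another group. The last injected group received foxa1MO, 3 pmol of a morpholino against the foxa1 start codon, and all were set against uninjected explants. Each treatment was sequenced at developmental stages st10.5 (gastrula), st16 (neurula), st25 and st32 (tailbud) in 2 experiments from different females and fertilizations, which gave 40 libraries in 20 groups of 2. All comparisons are of explants as a whole, in which fewer cells of a type and less RNA per cell cannot be told apart.

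Gluconeogenesis builds glucose from lactate, amino acids and glycerol by running glycolysis backwards, with separate enzymes at the steps that glycolysis makes irreversible. Pyruvate carboxylase (pc) turns pyruvate into oxaloacetate in the mitochondrion. Phosphoenolpyruvate carboxykinase then makes phosphoenolpyruvate in the cytosol (pck1) or the mitochondrion (pck2), fructose bisphosphatase (fbp1) bypasses phosphofructokinase, and glucose-6-phosphatase (g6pc) releases free glucose. In mammals the complete pathway is known from liver, kidney cortex and intestine, and pck1 is the member most strongly set by transcription. In the frog epidermis, Notch signalling is known to limit the number of multiciliated cells and of ionocytes, which are rich in mitochondria.

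Library totals ran from 20177357 to 99359750 counts. Levels are given as CPM, the count scaled to a common library total, so they are not adjusted for gene length and are compared only within a gene. Where libraries of a group are said to lie below or above all others, the share of all genes that separate likewise was not counted. A count of 0 allows up to 3 counts, which is 0.0302 to 0.149 CPM depending on the library, and these limits cover counting error only. The 15 epidermis marker copies summed to 25293 to 66370.2 CPM in the 30 libraries from st16 onwards. The highest level of any single copy of this list in any library was 37441.8 CPM, so single copies can make up much of a sum. The 25 liver and endoderm marker copies summed to at most 15.5 CPM in any of the 40 libraries, and alb.L, the serum protein albumin, was at 0 and 0.0540 CPM in st32 nicd explants and at 0 and 0 CPM in uninjected ones. The 6 kidney tubule marker copies summed to at most 51.8 CPM. L and S copies are near-identical in places and the handling of reads that map to both is not given in the sources used here, so values of single copies are uncertain to that extent. The RNA level of foxa1 is no check of a morpholino that acts on translation.

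pck1.L was higher at each later stage in 4 of the 5 treatments, by group means, and nicd explants followed another course. At st10.5 it had at most 0.147 CPM in any library, and at st16 it lay between 0.321 and 1.49 CPM. At st25 it had 62.8 and 31.5 CPM in nicd explants in experiments 1 and 2, 14.3 and 12.3 CPM in suh-dbm with dnmcidas, 13.2 and 14.1 CPM in suh-dbm alone, 20.3 and 13.4 CPM in foxa1MO and 7.70 and 6.71 CPM in uninjected explants. Both nicd libraries lay above the other 8 libraries of that stage. At st32 it had 13.5 and 32 CPM in nicd, 169.5 and 143 CPM in suh-dbm with dnmcidas, 265 and 163 CPM in suh-dbm alone, 72.4 and 101 CPM in foxa1MO and 244 and 129 CPM in uninjected explants. At this stage both nicd libraries lay below the other 8, and both foxa1MO libraries lay below the 6 of the remaining treatments.

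By mean level over the 20 groups, pck1.L was highest in st32 suh-dbm explants (214 ± 72.4 CPM, SD, n = 2), followed by uninjected explants (186 ± 81.1 CPM) and suh-dbm with dnmcidas (156 ± 18.5 CPM) of that stage. The libraries of these 3 groups overlapped. Next came st32 foxa1MO (86.7 ± 20.2 CPM) and then st25 nicd (47.2 ± 22.1 CPM), which did not overlap with their upper neighbours, while st32 nicd (22.7 ± 13.1 CPM) overlapped with st25 nicd.

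**Figure D1:**
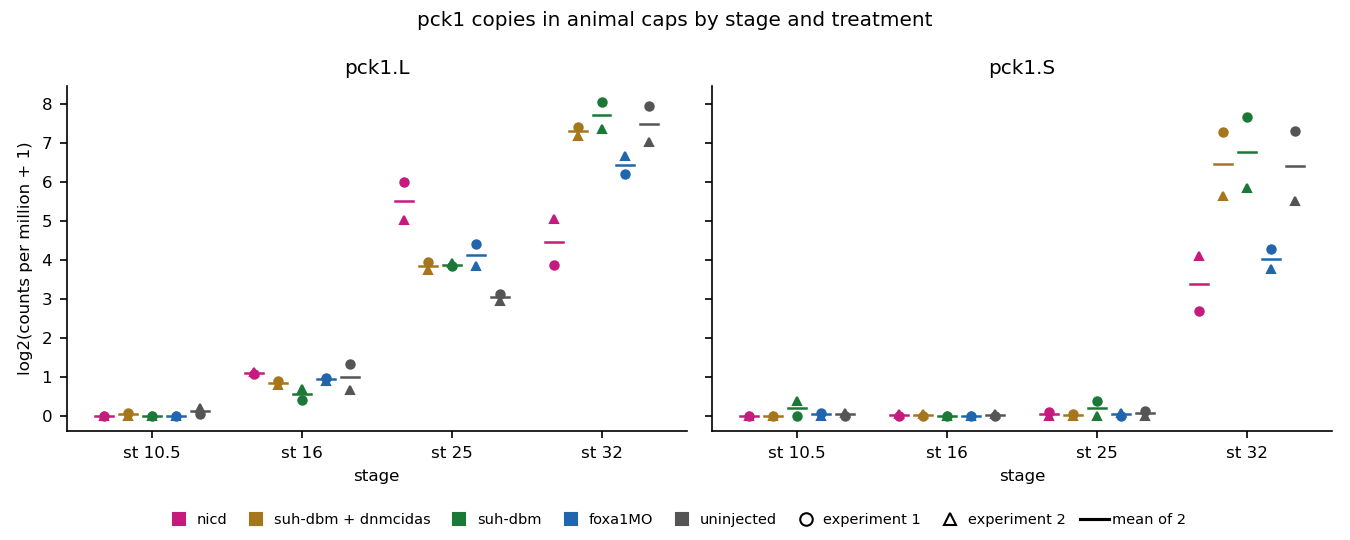
Level of pck1.L (left) and pck1.S (right) as log2(CPM + 1) at st10.5, st16, st25 and st32; each circle or triangle is 1 library of experiment 1 or 2, lines are means of 2, and colours are the 5 treatments with uninjected explants last. In the nicd explants pck1.L stands above all other groups at st25 and below them at st32, and pck1.S is near 0 until st32 in every treatment.

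pck1.S, the homeolog, was almost silent until st25 and then appeared in every treatment. Through st10.5, st16 and st25 no library exceeded 0.297 CPM, and the 2 libraries of st25 together held 2 counts in nicd, 1 in suh-dbm with dnmcidas, 11 in suh-dbm alone, 2 in foxa1MO and 6 in uninjected explants. At st32 it had 5.40 and 16 CPM in nicd, 154 and 48.5 CPM in suh-dbm with dnmcidas, 204 and 56.8 CPM in suh-dbm alone, 18.2 and 12.5 CPM in foxa1MO and 157 and 44.3 CPM in uninjected explants. The 6 libraries of suh-dbm, suh-dbm with dnmcidas and uninjected explants lay above the 4 of nicd and foxa1MO, which overlapped each other. In those 3 groups experiment 1 was the higher one each time.

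The injected libraries were not used by the choice of genes, but came from the same 2 experiments as the uninjected ones. Tests of the steps of pck1.L in them are thus not independent of that choice. Between st16 and st25 its log2 fold change was 5.34 ± 0.58 (SE) in nicd, 3.83 ± 0.55 in suh-dbm with dnmcidas, 4.83 ± 0.60 in suh-dbm alone and 4.20 ± 0.56 in foxa1MO explants, and all 4 rises passed edgeR's quasi-likelihood test with a Benjamini-Hochberg adjusted p of at most 9.47e-05. Between st25 and st32 it was 3.6 ± 0.52 in suh-dbm with dnmcidas, 3.92 ± 0.53 in suh-dbm alone and 2.32 ± 0.49 in foxa1MO explants. The edgeR adjusted p was 0.00343, 0.00131 and 0.0230 in that order. In nicd explants the log2 fold change was -1.15 ± 0.48 with an edgeR adjusted p of 0.183, and the experiments differed, with a within-experiment log2 ratio (of CPM scaled by TMM, edgeR's correction for composition) of -2.33 in experiment 1 and -0.04 in experiment 2. In uninjected explants the same step was 4.64, the value that chose the gene. Dropping either foxa1MO library of either stage ended that call, at edgeR adjusted p from 0.0636 to 0.269, and dropping st25 suh-dbm with dnmcidas of experiment 1 ended the call with dnmcidas at 0.211. With the 2 compared groups fitted alone, the calls in suh-dbm (0.0994) and foxa1MO (0.196) did not pass.

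The rise of pck1.S over the same step passed in all 4 injected treatments, with edgeR adjusted p of 0.00366 in nicd, 0.00269 in suh-dbm with dnmcidas, 0.00170 in suh-dbm alone and 0.00789 in foxa1MO. Outside st32, its libraries of suh-dbm at st10.5 experiment 2 (0.297 CPM) and st25 experiment 1 (0.291 CPM) lay just above the limit of the filter on low counts. pck1.S thus passed that filter only narrowly without st32, where its libraries lay far above the limit. With every gene of 1 count kept, a filter that does not use the groups, edgeR called all 4 rises as well. Because st25 counts were so few, its size is given as the ratio of summed counts with a 95% exact binomial interval, which covers counting error only and not the spread between experiments. The ratio was 374 (103 to 3090) in nicd, 5106 (916 to 201690.0) in suh-dbm with dnmcidas, 803 (448 to 1608) in suh-dbm alone and 539.6 (149 to 4460.0) in foxa1MO explants. Thus pck1.S rose in nicd explants over the interval in which the pck1.L step, at -1.15, did not pass. The call was lost without the st25 library of experiment 1 for suh-dbm with dnmcidas (edgeR adjusted p = 0.211) and for nicd (0.107). For foxa1MO it was lost without st25 experiment 1 (0.0758), st32 experiment 1 (0.152) or st25 experiment 2 (0.11), and with the compared groups fitted alone it was lost in suh-dbm (0.0994), nicd (0.0694) and foxa1MO (0.196).

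Whether the late step itself differed between treatments was tested as a difference of steps. For pck1.L the step in nicd minus the step in suh-dbm was -5.08 ± 0.70 (edgeR adjusted p = 0.0103). In this comparison edgeR called 5 of the 31648 genes tested (0.0158%), or 35 with every gene of 1 count kept, and DESeq2 called 121. Because pck1.L was chosen for its late step in uninjected explants, its place among all genes is a description. pck1.L was the only copy called of the 8 members tested. The call was lost on leaving out suh-dbm st25 experiment 1 (edgeR adjusted p = 0.135), suh-dbm st32 experiment 1 (0.0876), nicd st25 experiment 1 (0.0556), nicd st32 experiment 1 (0.0921) or suh-dbm st25 experiment 2 (0.0838), with fitted differences from -5.82 to -4.45. Against foxa1MO the nicd step differed by -3.47 ± 0.68, which did not pass (edgeR adjusted p = 0.146) without the experiment as a block and passed with it (0.0460). edgeR called 0% of all genes there, with 1934 at an unadjusted p under 0.05, while DESeq2 called pck1.L (0.00395). It also passed without nicd st25 experiment 2 (0.0245). Adding dnmcidas to suh-dbm gave a difference of steps of -0.32 ± 0.67 (edgeR adjusted p = 1.00), and 0% of all genes, and 0 members by DESeq2, were called there, with 1198 genes and 0 members at an unadjusted p under 0.05. Without suh-dbm st32 experiment 1 that difference was 0.070.

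Between nicd and suh-dbm explants, pck1.L differed in opposite directions at st25 and st32. At st25 the log2 fold change of nicd over suh-dbm was 1.79 ± 0.49 (edgeR adjusted p = 0.0113), and at st32 it was -3.29 ± 0.51 (edgeR adjusted p = 9.53e-05). At st16 it was 1.28 ± 0.59 and did not pass (edgeR adjusted p = 0.175). The st32 call held with each library left out, at -4.03 to -2.80. The st25 call was lost without suh-dbm experiment 1 (0.0736), suh-dbm experiment 2 (0.0839) or nicd experiment 1 (0.221), where the log2 fold change was 1.16. pck1.S was lower in nicd at st32, with a log2 fold change of -3.66 ± 0.95 (edgeR adjusted p = 0.0134), but DESeq2 gave an adjusted p of 0.376. That call was also lost without experiment 1 of suh-dbm (0.170) or of nicd (0.183), and with both groups fitted alone (0.0578).

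Against uninjected explants, which the choice of genes used, the nicd explants are described only. The log2 fold change of pck1.L was 2.72 at st25 and -3.07 at st32, and that of pck1.S at st32 was -3.28. In foxa1MO explants of st32 it was -1.08 for pck1.L and -2.71 for pck1.S. In suh-dbm explants it was 0.21 and 0.37 for the same copies. At st25 the mean level of pck1.L was higher in every injected group than in uninjected explants (7.21 CPM). Besides nicd, it was 13.6 CPM in suh-dbm, 13.3 CPM in suh-dbm with dnmcidas and 16.9 CPM in foxa1MO explants. With dnmcidas beside suh-dbm, pck1.L differed from suh-dbm alone by -0.63 ± 0.47 at st32 and pck1.S by -0.53 ± 0.85, and neither passed (edgeR adjusted p = 0.809 and 0.983).

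pc.L, the copy of pyruvate carboxylase that rose with development, was present from the first stage. At st10.5 it lay between 84.3 and 100.1 CPM in all 10 libraries. From st10.5 to st16 it rose in suh-dbm with dnmcidas (log2 fold change 1.39 ± 0.46), suh-dbm alone (1.6 ± 0.47) and foxa1MO explants (1.52 ± 0.47), with edgeR adjusted p of 0.0191, 0.00714 and 0.0104 in that order. In nicd explants that step was -0.54 ± 0.46 (edgeR adjusted p = 0.370). Those 3 early calls were lost with the counts of pc.L and pc.S summed (edgeR adjusted p = 0.126, 0.0797 and 0.0917 in the same order), and single libraries also decided them. They were lost without st10.5 (0.05) or st16 (0.132) of experiment 1 in suh-dbm, without the same libraries in foxa1MO (0.0560 and 0.438), and without any 1 of the 4 with dnmcidas (0.0518 to 0.0852). Between st16 and st25 it rose in all 4 injected treatments, by 2.32 on the log2 scale in nicd, 2.13 in suh-dbm with dnmcidas, 3.04 in suh-dbm alone and 3.08 in foxa1MO explants. The nicd call was lost without st16 experiment 1 (0.0511) or st25 experiment 2 (0.0663).

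At st25 pc.L stood at 139 and 374 CPM in nicd, against 2155 and 1323 CPM in suh-dbm and 1770.1 and 1684 CPM in uninjected explants. At st32 it had 1232 and 1190.4 CPM in nicd, 4263 and 2363 CPM in suh-dbm and 3825 and 2702 CPM in uninjected explants. At st16, st25 and st32 both nicd libraries lay below the 8 others of the stage. The log2 fold change of nicd over suh-dbm was -2.08 ± 0.47, -2.80 ± 0.49 and -1.50 ± 0.46 at the 3 stages, with edgeR adjusted p of 0.00379, 1.53e-04 and 0.0368. Over uninjected explants it was -1.99 ± 0.47, -2.76 ± 0.49 and -1.45 ± 0.46, with edgeR adjusted p of 0.00597, 2.52e-04 and 0.0671, the last of which was 0.0385 with the experiment as a block. Without 1 library the st32 call against suh-dbm was lost on leaving out suh-dbm experiment 1 (0.350), nicd experiment 1 (0.182) or nicd experiment 2 (0.174), and the st16 call without suh-dbm experiment 1 (0.0932) or nicd experiment 1 (0.0749). The st16 call against uninjected explants was lost without nicd experiment 1 (0.106).

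pc.L was the one member besides pck1.S whose late rise passed in nicd explants, at 2.17 ± 0.48 (edgeR adjusted p = 0.0119), with within-experiment log2 ratios of 3.04 in experiment 1 and 1.62 in experiment 2. The step was 0.87 ± 0.46 in suh-dbm, and the steps of nicd and suh-dbm did not differ beyond the threshold (difference 1.31 ± 0.65, edgeR adjusted p = 0.876). The call was lost without experiment 1 of nicd at st25 (0.344) or st32 (0.0695), and with both stages fitted alone (0.103). The homeolog pc.S was lower at later stages. It lay between 48.7 and 85.9 CPM in the 10 libraries of st10.5, between 21.3 and 44.6 CPM at st16, between 6.57 and 19.2 CPM at st25 and between 6.75 and 13.7 CPM at st32. No comparison of nicd with suh-dbm or with uninjected explants called pc.S.

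**Figure D2:**
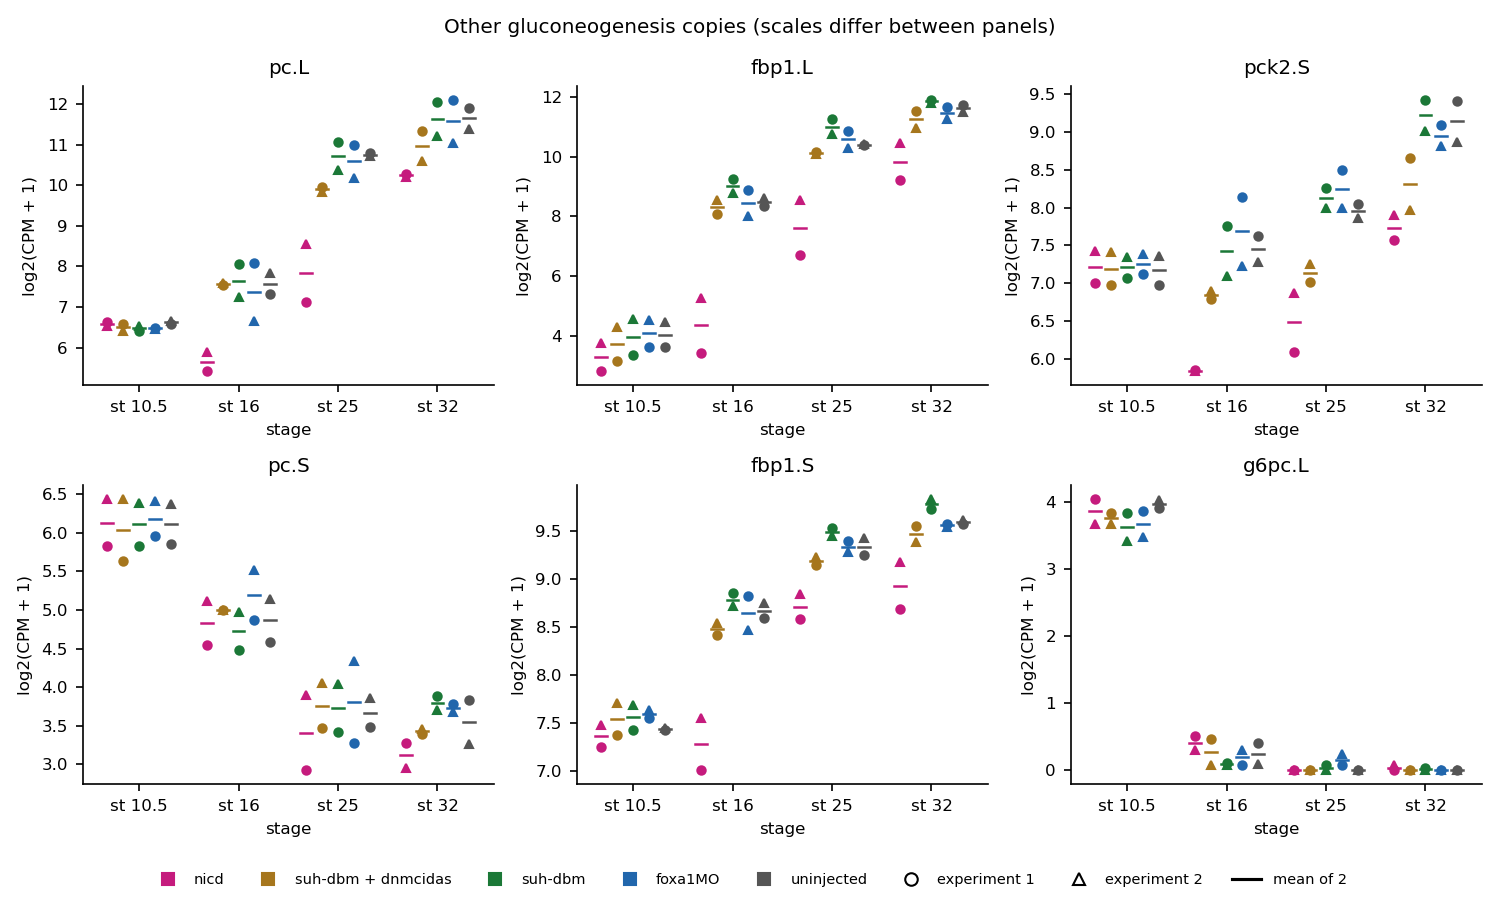
Levels of pc.L, fbp1.L, pck2.S, pc.S, fbp1.S and g6pc.L as log2(CPM + 1) at 4 stages, with 1 point per library, the mean of 2 as a line and 5 treatments with uninjected explants last; the scales differ between panels. The nicd libraries lie below the other 8 at st16, st25 and st32 for pc.L, fbp1.L, pck2.S and fbp1.S, while pc.S and g6pc.L are lower at later stages in all treatments. The share of all genes whose nicd libraries separate in this way was not counted.

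fbp1.L, the bisphosphatase that opposes phosphofructokinase, rose steeply between st10.5 and st16 outside the nicd explants. At st10.5 it lay between 5.98 and 22.5 CPM. By st16 it had 9.83 and 37.2 CPM in nicd, 610.5 and 442 CPM in suh-dbm and 326 and 388 CPM in uninjected explants. The log2 fold change over that step was 1.69 ± 0.61 in nicd, 4.90 ± 0.69 in suh-dbm with dnmcidas, 5.42 ± 0.71 in suh-dbm alone and 4.86 ± 0.69 in foxa1MO explants, and all 4 passed, the first of them with an edgeR adjusted p of 0.0316. The nicd value was 0.53 without st16 experiment 2 and 1.29 without st10.5 experiment 1, and passed in neither case. With fbp1.L and fbp1.S summed it was 0.45 (edgeR adjusted p = 0.262). At st25 it had 103 and 372 CPM in nicd, 2464 and 1734 CPM in suh-dbm and 1341 and 1373 CPM in uninjected explants, and at st32 it had 590.3 and 1396 CPM in nicd, 3867 and 3607 CPM in suh-dbm and 3445 and 2916 CPM in uninjected explants.

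The log2 fold change of fbp1.L in nicd over suh-dbm was -4.52 ± 0.68 at st16, -3.18 ± 0.64 at st25 and -1.96 ± 0.61 at st32, with edgeR adjusted p of 5.72e-05, 7.35e-04 and 0.0366. Over uninjected explants it was -4.0 ± 0.66, -2.53 ± 0.62 and -1.70 ± 0.60, and the last did not pass (edgeR adjusted p = 0.113). The st32 call against suh-dbm was lost without suh-dbm experiment 1 (0.124), suh-dbm experiment 2 (0.0958) or nicd experiment 1 (0.340), and the st25 call against uninjected explants without nicd experiment 1 (0.177). The late step of fbp1.L in nicd explants was 2.00 ± 0.61, with an edgeR adjusted p of 0.0628 without and 0.0355 with the experiment as a block.

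fbp1.S was also lower in nicd explants. It lay between 151 and 209 CPM at st10.5, and at st32 had 411 and 578 CPM in nicd, 845 and 914 CPM in suh-dbm and 759 and 783 CPM in uninjected explants. In nicd over suh-dbm it fell by 1.49, 0.79 and 0.88 on the log2 scale at st16, st25 and st32 (edgeR adjusted p = 2.11e-05, 0.00589 and 0.00400), with both nicd libraries below the other 8 at each of these stages. Leaving out nicd experiment 1 ended the calls at st25 (0.0903) and st32 (0.134), and leaving out suh-dbm experiment 1 ended that at st25 (0.0586). Over uninjected explants of st32 it was -0.65 ± 0.20, with an edgeR adjusted p of 0.0534 without and 0.0402 with the experiment as a block, and 0.0307 without nicd experiment 2.

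pck2.S, which encodes the mitochondrial form of the carboxykinase, was present from the start, at 125 to 171 CPM in the libraries of st10.5. At st25 it had 67.0 and 116 CPM in nicd, 307 and 255 CPM in suh-dbm and 264 and 233 CPM in uninjected explants, and at st32 it had 189 and 239 CPM in nicd, 689 and 519 CPM in suh-dbm and 678 and 469 CPM in uninjected explants. The nicd libraries lay below the 8 others at st16, st25 and st32. Its log2 fold change in nicd over suh-dbm was -1.64 ± 0.35, -1.64 ± 0.35 and -1.54 ± 0.35 at those stages (edgeR adjusted p = 0.00222, 0.00146 and 0.00382). Over uninjected explants it was -1.45 ± 0.35 at st32 (edgeR adjusted p = 0.00990). Against suh-dbm, pck2.S and both pck1 copies were lower in nicd at st32, and at st25 pck2.S was lower while pck1.L was higher. The late step of pck2.S in nicd explants was 1.15 ± 0.35, with an edgeR adjusted p of 0.0624 without and 0.0436 with the experiment as a block. Single libraries ended the calls against suh-dbm at st16 (without suh-dbm experiment 1, 0.0803), st25 (without nicd experiment 1, 0.0601) and st32 (without experiment 1 of suh-dbm, 0.0528, or of nicd, 0.0814). Against uninjected explants the st32 call was lost without experiment 1 of nicd (0.171) or of the uninjected explants (0.191).

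pck2.S was also the only member called between suh-dbm with dnmcidas and suh-dbm alone. At st25 it had 129 and 151 CPM in suh-dbm with dnmcidas, against 307 and 255 CPM in suh-dbm alone, a log2 fold change of -1.28 ± 0.35 (edgeR adjusted p = 0.0261, 1 of 8 members tested, beside 3.91% of all genes lower). The call was lost without suh-dbm experiment 1 (0.198) or without experiment 1 (0.272) or 2 (0.0794) of suh-dbm with dnmcidas. At st32 the value was -1.07 ± 0.35 and did not pass (edgeR adjusted p = 0.130).

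g6pc.L, whose product releases glucose in mammalian liver, was an early transcript here. At st10.5 it lay between 9.76 and 15.6 CPM in all 10 libraries, and at st16 between 0.0610 and 0.436 CPM. The log2 fold change between these stages was -4.92 ± 0.90 in nicd and -6.99 ± 1.07 in suh-dbm explants (edgeR adjusted p = 2.70e-04 and 3.11e-05), with the other 2 injected treatments between them and also called. The st16 libraries held only 19 and 8 counts in nicd and 2 and 2 counts in suh-dbm, so the sizes of these falls are uncertain. At st25 and st32 no library had more than 7 counts. g6pc.S held 6 counts over all 40 libraries and was not tested. At st32, when pck1 was highest in 4 of the 5 treatments, no library held more than 0.0540 CPM of either g6pc copy. A gene outside the set, named after its values were seen, is g6pc-like.1.L. At st25 it had 13.7 and 69.2 CPM in nicd, 54.3 and 78.3 CPM in suh-dbm and 149.6 and 149 CPM in uninjected explants, and at st32 it had 121 and 399.6 CPM in nicd, 348 and 512 CPM in suh-dbm and 552 and 754 CPM in uninjected explants.

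**Figure D3:**
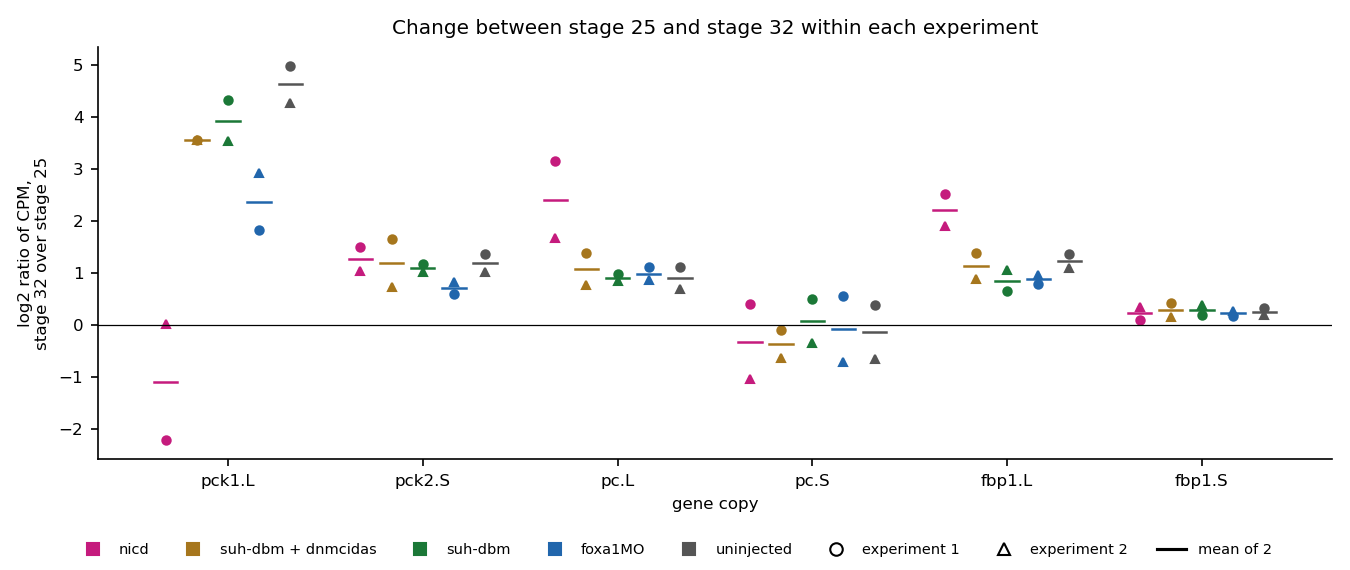
Change of 6 copies between st25 and st32 as the log2 ratio of CPM within each experiment (circle, experiment 1; triangle, experiment 2; line, mean), for 5 treatments with uninjected explants last. For pck1.L both nicd points lie below those of every other treatment, while for pc.L and fbp1.L both nicd points lie above them; the uninjected pck1.L points are the values by which the genes were chosen.

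Counts over the 8 members tested are given beside the share of all genes called. Between st10.5 and st16, 2 of 8 rose in nicd (19.1% of all genes rose) and 2 fell (18.3% fell). Over that step 4 rose (19.6%) and 1 fell (21.4%) in suh-dbm with dnmcidas, 4 rose (22.3%) and 2 fell (21.9%) in suh-dbm alone, and 5 rose (20.7%) and 1 fell (21.2%) in foxa1MO. Between st16 and st25, 4 rose (9.77%) and 2 fell (9.24%) in nicd, 2 rose (9.22%) and 2 fell (8.34%) in suh-dbm with dnmcidas, 4 rose (11.9%) in suh-dbm alone, and 4 rose (11.4%) and 1 fell (10.4%) in foxa1MO. Between st25 and st32, 2 of 8 rose in each treatment, beside 1.69% of all genes in nicd, 0.351% in suh-dbm with dnmcidas, 0.303% in suh-dbm alone and 0.521% in foxa1MO. Of the 40 early calls, 17 were lost with 1 or more of their libraries left out in turn, 4 of pc.L, 4 of pc.S, 3 of fbp1.L and 2 each of fbp1.S, pck2.S and g6pc.L, at edgeR adjusted p from 0.05 to 0.594, and none of pck1.L was. With the counts of pck1.L and pck1.S summed, the rise from st10.5 to st16 in suh-dbm did not pass (log2 fold change 2.26, edgeR adjusted p = 0.0777). For pck1.L alone that step rested on 8 and 20 counts at st16, against 0 and 0 at st10.5. pck1.S is among the late rises although without st32 it passed the filter only narrowly. Both pck1 copies were also chosen for their rise from st25 to st32 in uninjected explants. The number of late rises is therefore a description and is not to be read against the shares of all genes. The late rises were of both pck1 copies in suh-dbm, suh-dbm with dnmcidas and foxa1MO, and of pck1.S and pc.L in nicd explants, where the experiment as a block called 4, with pck2.S and fbp1.L added.

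In nicd over suh-dbm, 0 of 8 were called at st10.5 by edgeR (0.0569% of all genes called), with 0 at an unadjusted p under 0.05 and 0 by DESeq2. At st16, 4 were lower, beside 7.36% of all genes. At st25, 4 were lower (9.88%) and 1, pck1.L, was higher (8.84%). At st32, 6 were lower (6.91%), which left out pc.S and g6pc.L. Both pck1 copies were among those lower at st32, and DESeq2 did not call pck1.S. They had been chosen for their rise from st25 to st32 in uninjected explants of the same experiments. With them included, the counts at st25 and st32 are descriptions and are not to be read against the shares of all genes. Over uninjected explants the same 4 copies, fbp1.L, fbp1.S, pck2.S and pc.L, were lower in nicd at st16 (7.22% of all genes lower) and at st25 (7.1%), and pck2.S alone of the 6 copies other than pck1 at st32 (4.05%), or 3 of the 6 with the experiment as a block, which added fbp1.S and pc.L, as did DESeq2. At st10.5 edgeR called 0 of 8 (0.0537% of all genes called), with 1 at an unadjusted p under 0.05 and 0 by DESeq2. Leaving out 1 library at st25 against uninjected explants ended the fbp1.S call in 4 of 4 cases, between 0.0692 and 0.326, and the pck2.S call without experiment 1 of nicd (0.174) or of the uninjected explants (0.0543).

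In the other treatments no member was called against uninjected explants by edgeR. Over the 4 stages it called 0 of 28 tests of members in suh-dbm against uninjected explants, 0 of 28 in foxa1MO and 0 of 28 in suh-dbm with dnmcidas. At an unadjusted p under 0.05 there were 2, 2 and 4 in that order, and DESeq2 called 0, 0 and 1, the last being pck2.S at st25 with dnmcidas. These tests leave out pck1 at st25 and st32. Of all genes, 0.00316%, 0.00316%, 0% and 0% were called at st10.5, st16, st25 and st32 in suh-dbm, 0.0158%, 0.0442%, 0.0284% and 0.0126% in foxa1MO, and 0.0126%, 4.12%, 5.59% and 2.74% in suh-dbm with dnmcidas. Between suh-dbm with dnmcidas and suh-dbm alone, no member was called by edgeR at st10.5 (0.00632% of all genes), st16 (3.24%) and st32 (2.92%), where 0, 0 and 2 (fbp1.S and pck2.S) had an unadjusted p under 0.05 and DESeq2 called 0.

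Many enzymes that feed the pathway were lower in nicd as well. Between nicd and suh-dbm, 9.88% of all genes were lower and 8.84% higher at st25, and 6.91% were lower and 4.02% higher at st32, and the counts of the following lists are read against these shares. Of 31 tested copies for substrate supply (interconversion of lactate, pyruvate, malate, aspartate and glycerol, and their carriers), 16 were lower in nicd than in suh-dbm at st32 and 0 higher, with a median log2 fold change of -1.19 against 0.00 over all genes. At st25 there were 15 lower and 0 higher, with a median of -0.94 against 0.01. ldhb.S, a lactate dehydrogenase that makes pyruvate from lactate, had 619 and 643 CPM in nicd, against 4479 and 2222 CPM in suh-dbm at st32, a log2 fold change of -2.46 ± 0.53. mpc2.S, a subunit of the mitochondrial pyruvate carrier, had 122 and 127 CPM in nicd, against 445 and 387 CPM in suh-dbm (-1.78 ± 0.24). mdh2.S, the mitochondrial malate dehydrogenase through which oxaloacetate leaves as malate, had 8.00 and 5.24 CPM in nicd, against 73.2 and 54.5 CPM in suh-dbm (-3.31 ± 0.47), and its homeolog mdh2.L fell by 4.19. gk.S, a glycerol kinase, differed most at st25, with 1.44 and 3.1 CPM in nicd, against 20.2 and 48.5 CPM in suh-dbm. me1.L, a malic enzyme, had 0 and 0 counts in nicd, against 10 and 80 counts in suh-dbm at st32. With both experiments pooled and 3 counts over the nicd group in place of 0, it was 23.6-fold lower. That value rests mostly on the 80 counts of suh-dbm experiment 2. It does not cover the spread between experiments and is no bound for experiment 1 alone.

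Copies of the tricarboxylic acid cycle and pyruvate dehydrogenase followed the same direction, with 19 of 27 tested lower and 0 higher in nicd than in suh-dbm at st32 (median -1.05), and 15 lower and 1 higher at st25 (median -0.79). The 1 higher copy at st25 was pdk4.S, a kinase that switches off pyruvate dehydrogenase, at 61.6 and 65.5 CPM in nicd, against 22.0 and 18.1 CPM in suh-dbm (1.64 ± 0.56, edgeR adjusted p = 0.0421).

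Of 17 tested glycolytic copies for the reversible steps, which serve both directions, 4 were lower at each of st25 and st32 and 0 were higher, with medians of -0.81 and -1.16. At st32 these were pgam1.S, gapdh.S, tpi1.L and aldoc.L. pgam1.S, a phosphoglycerate mutase, had 1.63 and 0.594 CPM in nicd, against 12.7 and 9.08 CPM in suh-dbm. gapdh.S, the dehydrogenase of glyceraldehyde phosphate, had 93.4 and 67.3 CPM in nicd, against 824 and 342 CPM in suh-dbm. Of 19 tested copies for the one-way steps of glycolysis, 3 were lower at st25 (median -0.67) and 2 at st32 (median -0.18), with 0 higher, beside 9.88% and 6.91% of all genes lower. The pair at st32 was gck.L and hkdc1.L, both hexokinases, and hkdc1.L had 0.0867 and 0.216 CPM in nicd, against 2.73 and 9.41 CPM in suh-dbm. Among 7 tested relatives at the last step and its transporters, 1 was lower at each stage and 0 higher, too few copies to set against those shares. At st25 it was slc37a4.L, which carries glucose-6-phosphate to the phosphatase, with 50.4 and 75.7 CPM in nicd, against 280.4 and 192 CPM in suh-dbm. At st32 it was g6pc2.L, a relative of g6pc, with 0.0433 and 0.108 CPM in nicd, against 2.82 and 3.54 CPM in suh-dbm.

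Of 26 tested regulators of the pathway, 6 were lower and 2 higher at st25 and 2 lower at st32, where the block for the experiment gave 5 lower. The 2 higher at st25 and the 2 lower at st32 are near the shares of all genes, 8.84% and 6.91%, so the copies named are single genes and not a result about the list. ppargc1a.S, a coactivator of mitochondrial and gluconeogenic genes, had 7.39 and 8.70 CPM in nicd, against 28.4 and 35.5 CPM in suh-dbm at st32 (-2.03 ± 0.41, edgeR adjusted p = 0.00110). esrra.L, a nuclear receptor that works with it, had 33.0 and 51.9 CPM in nicd, against 205 and 280.2 CPM in suh-dbm (-2.56 ± 0.63). gcgr.L, the glucagon receptor, was lower at st25, with 0 and 0.100 CPM in nicd, against 0.424 and 0.440 CPM in suh-dbm. The 2 higher at st25 were creb1.S and cebpb.S, factors known to act on the mammalian pck1 gene. Their homeologs creb1.L and cebpb.L were not called higher there, and a part of either factor in the level of pck1.L was not tested. creb1.S had 42.1 and 21.9 CPM in nicd, against 12.5 and 9.07 CPM in suh-dbm, and cebpb.S had 0.471 and 1.73 CPM in nicd, against 0.159 and 0.165 CPM in suh-dbm. hnf4a.S, a liver and kidney factor, had at most 4 counts in any of the 40 libraries.

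**Figure D4:**
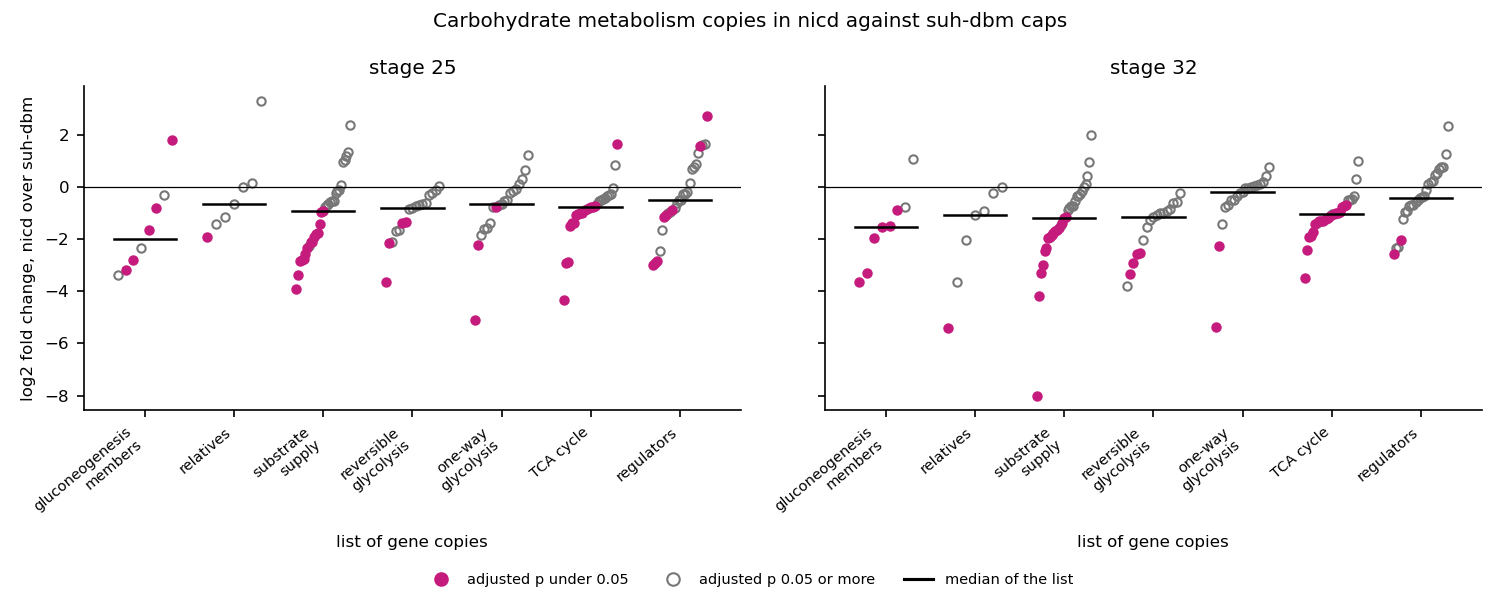
Log2 fold change of nicd over suh-dbm at st25 (left) and st32 (right) for each tested copy of 7 lists, filled where the edgeR adjusted p is under 0.05, with the list median as a line. Copies for substrate supply and the TCA cycle lie mostly below 0 at both stages, with medians of -0.94 and -0.79 at st25 and -1.19 and -1.05 at st32, and the lowest point at st32 is me1.L, whose fitted value rests on 0 counts in nicd and is no bound.

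Cell-type markers moved with these groups. The 25 ionocyte marker copies, among them V-ATPase subunits and foxi1, summed to 276 and 232 CPM in nicd, 3910.4 and 6508 CPM in suh-dbm and 1422 and 2662 CPM in uninjected explants of st32, and 22 of 25 were lower in nicd than in suh-dbm with 0 higher. At st25 the sums were 265 and 361 CPM in nicd, 3540.2 and 6739 CPM in suh-dbm and 1676 and 2361 CPM in uninjected explants. foxi1.L, which specifies ionocytes, had 0 and 0.216 CPM in nicd, against 203 and 286 CPM in suh-dbm at st32, and 2 of the 25 copies, bsnd.S and slc26a4.L, had 0 counts in both nicd libraries of that stage. The 17 multiciliated cell marker copies summed to 10.4 and 16.9 CPM in nicd, 585 and 574 CPM in suh-dbm and 502 and 562 CPM in uninjected explants, and 8 of 16 tested were lower. The 10 basal cell marker copies summed to 1688 and 1587 CPM in nicd, 390.0 and 414 CPM in suh-dbm and 575 and 652 CPM in uninjected explants, with 5 higher and 1 lower in nicd than in suh-dbm. The 8 muscle marker copies summed to 65.5 and 211 CPM in nicd, 32.3 and 19.4 CPM in suh-dbm and 23.4 and 35.8 CPM in uninjected explants at st25. In suh-dbm with dnmcidas of st32 the multiciliated markers summed to 60.9 and 32 CPM while ionocyte markers summed to 5659.9 and 5306 CPM. No member was called against suh-dbm at that stage. There pc.L had 2604 and 1555 CPM, below both uninjected libraries, while fbp1.L, at 2987 and 2009 CPM, overlapped them. At st25 this treatment had 1002 and 910 CPM of pc.L and 1140 and 1093 CPM of fbp1.L. Those lay below every suh-dbm, foxa1MO and uninjected library of st25, though edgeR called neither copy against suh-dbm or uninjected explants. The ionocyte sum was higher in both suh-dbm libraries than in both uninjected ones at st16, st25 and st32, as were those of fbp1.L, while the pc.L libraries of these treatments overlapped at all 3 stages. edgeR called neither copy between them, and neither had an unadjusted p under 0.05 at these stages. The share of all genes whose libraries separate likewise between suh-dbm and uninjected explants was not counted. The part of these cell types in the values of the members was not tested.

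**Figure D5:**
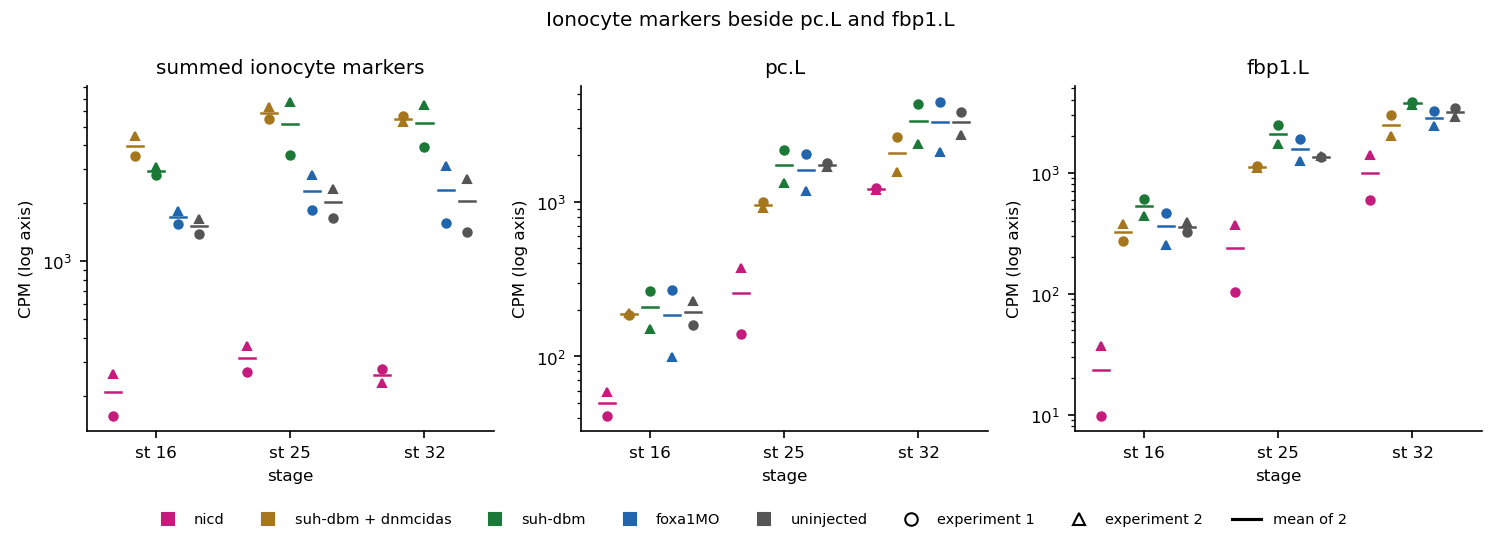
Summed CPM of 25 ionocyte marker copies (left) beside the CPM of pc.L (middle) and fbp1.L (right) on log axes at st16, st25 and st32, with 1 point per library, the mean of 2 as a line and uninjected explants last. The nicd libraries are lowest in all 3 panels. In suh-dbm the marker sum lies above that of uninjected explants as do the fbp1.L libraries, while those of pc.L overlap. edgeR called neither copy between suh-dbm and uninjected explants, and the share of all genes that separate likewise was not counted. With dnmcidas beside suh-dbm, the pc.L and fbp1.L libraries of st25 lie below those of suh-dbm, foxa1MO and uninjected explants.

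The genes whose pattern was most like that of pck1.L over the 40 libraries were ctsa.L, ephx2.L, ndufb8.S, pmm2.S and fam102a.S, with Pearson correlations of log2 CPM from 0.953 to 0.956 among 14120 genes compared. For pck1.S they were suclg2.L, acsm3.L, npc2.L, apoe.S and eif2b4.L, with 0.863 to 0.876. The pck1 copies correlated with each other at 0.72. The points share stages, experiments and library depth, so these are descriptions. The genes named for pck1.L did not share its late course in nicd explants. There the mean of pck1.L was 47.2 CPM at st25 and 22.7 CPM at st32, while the mean of each named gene was higher at st32. For ctsa.L it was 73.9 and 125 CPM. Among the treatments at st25, the nicd mean was highest for pmm2.S and fam102a.S and lowest for ctsa.L, ephx2.L and ndufb8.S. These differences were not tested.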

How the data were processed

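Whole-number counts per gene ID and library, deposited by the authors, were used as they stand. Per the submitters' processing notes the tools were FastQC 0.11.5, STAR 2.6.0b-1, featureCounts 1.6.3 and DESeq2 1.22.1. Per the labels' protocols the libraries were poly-A selected and not strand-specific, so reads of antisense partners cannot be told apart from those of a gene. The genome build, the annotation and the handling of reads that map to several places are not given in the sources used here, so no coordinates are printed. Gene symbols come from the deposited symbol table, and 48349 of 51017 IDs have one. The authors' tables of comparisons were not used.

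From the counts, CPM over the library total was computed for levels. Tests used edgeR 4.0.16 in R 4.3.3: TMM scaling, filterByExpr (minimum count 10, minimum total 15), 1 quasi-likelihood fit of 20 groups with 20 residual degrees of freedom over 31648 genes, and Benjamini-Hochberg adjustment within each of 42 comparisons, called at 0.05. The filter passed 8 of the 9 copies. The fit was also run on simulated counts, for nicd over suh-dbm at st32 only. Those counts had no stage or experiment effects, and the fit was given the spread used to draw them. That run therefore cannot show how the fit does on these libraries. The SE of a log2 fold change is its size divided by the square root of F. Fitted folds of a copy near 0 counts depend on the prior count. Those of pck1.S over the late step are given only among the alternatives, and those of g6pc.L from st10.5 to st16 are given beside its counts.

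The members and lists were chosen with earlier results of these data known. Named are all members, up to 6 called list copies per contrast by largest change, list genes needed for a role in the pathway, and the 5 genes most like each pck1 copy among named genes with a mean log2 CPM of at least 0. Alternatives were the experiment as a block, RLE scaling, no filter beyond 1 count, DESeq2 1.42.0, L and S counts summed, a fit of the compared groups alone, each library left out in turn, TMM-scaled CPM for the order of levels, and, chosen after seeing the data, the dataset number in the file headers (20 libraries each) as a term. With a library left out, the remaining one of its group is assumed to vary like the other groups. Replicate numbers mark an experiment with its own female and fertilization, per the labels, and so pair the samples. In 40 of 40 pairs of groups of 1 stage, the deviations of same-numbered libraries correlated above 0.1 (median 0.438). For groups of different stages this held in 119 of 150 pairs (median 0.154). The main fit did not use this pairing, and the experiment as a block is given as an alternative.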

Additional observations from a re-analysis of the deposited data

Results flagged for a closer look

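The change of pck1.L from st25 to st32 differed between nicd and suh-dbm explants by a test of the difference itself. On the log2 scale it was -1.15 in nicd and 3.92 in suh-dbm, a difference of -5.08 ± 0.70 (edgeR adjusted p = 0.0103). The call was lost in 5 of the 8 fits that each left out 1 library, with an edgeR adjusted p of up to 0.135. Within experiments the difference was -6.55 in experiment 1 and -3.56 in experiment 2. No group has more than 2 libraries, so no single library was compared with the rest of its group.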

How the results depend on the processing

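Of 97 results with a test, 41 were selected as main results, each a chosen copy in a chosen comparison. Of their 429 values under alternatives, 353 kept direction and side of the threshold. Of the values for these 41 with 1 library left out, 48 lost the call, 2 gained it and 1 reversed. A result has several such values, so these are not numbers of results. Fitting the compared groups alone lost 10 calls. DESeq2 and every gene of 1 count each lost 1 and gained 3. The block gained 3, and the header number and summed copies gained 2 each. Of the 550 values of the other results, 487 kept direction and side of the threshold. 49 lost the call, 13 gained it and 1 reversed, the fbp1.S step in nicd, which ran from -0.11 to 0.37 with 1 library left out and was -0.11 without st32 experiment 2.

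With the compared groups fitted alone, calls were lost for the late step of pck1.L in suh-dbm (3.91) and foxa1MO (2.33) and of pck1.S in suh-dbm (9.68), nicd (8.40) and foxa1MO (8.95). They were also lost for nicd over suh-dbm of fbp1.S at st25 (-0.84) and, at st32, of pck1.S (-3.66), fbp1.L (-1.96), fbp1.S (-0.88) and pc.L (-1.50). DESeq2 did not call pck1.S in nicd over suh-dbm at st32 (-3.62).

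The experiment as a replicate block ended no call of a member, and added pck1.L in the step difference of nicd minus foxa1MO (-3.42), which also passed with every gene of 1 count kept (-3.46) and in DESeq2 (-3.40). It added, in nicd over uninjected explants at st32, fbp1.S (-0.66) and pc.L (-1.43), and raised the regulators lower in nicd than in suh-dbm to 5. fbp1.S was also called with the header number as a term (-0.66) and in DESeq2 (-0.65), and pc.L with every gene of 1 count (-1.45), the header number (-1.42), both copies summed (-1.45) and DESeq2 (-1.45). fbp1.L was called there with every gene of 1 count (-1.70) or both copies summed (-1.43), and fbp1.S at st25 lost its call with every gene of 1 count (-0.64). TMM-scaled CPM changed the rank of 10 of 20 groups of pck1.S. The cause of these changes was not tested.

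Leaving out 1 library at a time changed a call or a direction for the following log2 fold changes, given as their lowest and highest values. They were the late step in suh-dbm with dnmcidas (3.44 to 3.74 for pck1.L and 11.05 to 14.88 for pck1.S), the late step in nicd (7.31 to 11.75 for pck1.S) and the late step in foxa1MO (2.02 to 2.69 for pck1.L and 8.13 to 12.32 for pck1.S). Others were nicd over suh-dbm at st25 (1.16 to 2.23 for pck1.L, -0.89 to -0.70 for fbp1.S and -2.05 to -1.33 for pck2.S), nicd over suh-dbm at st32 (-4.63 to -2.46 for pck1.S, -2.70 to -1.47 for fbp1.L, -1.14 to -0.66 for fbp1.S, -1.73 to -1.33 for pck2.S and -1.86 to -1.01 for pc.L) and the step of nicd minus that of suh-dbm (-5.82 to -4.45 for pck1.L). Further ones were the step of nicd minus that of foxa1MO (-4.21 to -2.84 for pck1.L), the step of suh-dbm with dnmcidas minus that of suh-dbm (-0.63 to 0.07 for pck1.L) and suh-dbm with dnmcidas over suh-dbm at st25 (-1.46 to -1.08 for pck2.S). Then came nicd over uninjected at st16 (-2.20 to -1.81 for pc.L), nicd over uninjected at st25 (-3.67 to -1.90 for fbp1.L, -0.72 to -0.53 for fbp1.S and -1.85 to -1.13 for pck2.S) and nicd over uninjected at st32 (-0.91 to -0.44 for fbp1.S and -1.77 to -1.10 for pck2.S). The rest were nicd over suh-dbm at st16 (-1.99 to -1.18 for pck2.S and -2.48 to -1.52 for pc.L). The pck1.L difference of suh-dbm with dnmcidas minus suh-dbm changed sign at 0.070 without suh-dbm st32 experiment 1.

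Over all genes, the late step in suh-dbm called 232 genes, 613 with the block, 528 with every gene of 1 count, 387 with the header number and 1118 in DESeq2, and that in suh-dbm with dnmcidas 174, 462, 582, 309 and 1138. It called 1269 in nicd, 2209 with the block and 2763 in DESeq2, and 369 in foxa1MO, 860 with the block, 579 with every gene of 1 count, 593 with the header number and 1486 in DESeq2. The step difference of nicd minus suh-dbm called 5 genes, 11 with the block, 35 with every gene of 1 count, 10 with the header number, 3 with RLE, 2 with both copies summed and 121 in DESeq2. DESeq2 called 2949 genes in suh-dbm with dnmcidas over suh-dbm at st25, where edgeR called 1900. With 2 libraries a group, counts near 0 in pck1.S at st25 limit its fold change, and g6pc.S could not be tested.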

Other observations

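Lists of other cell types, compared between nicd and suh-dbm explants, are small, and their counts stand beside 8.84% of all genes higher and 9.88% lower at st25, and 4.02% higher and 6.91% lower at st32. Of 6 tested neural marker copies 3 were higher in nicd at st25 and 2 at st32, with 0 lower. Of 7 tested goblet cell marker copies 2 were higher and 1 lower at st25, and 2 were higher and 0 lower at st32. The 5 small secretory cell marker copies summed to 340.4 and 143 CPM in nicd and 37.3 and 19.6 CPM in suh-dbm at st32. The highest level of any single copy of this list in any library was 324 CPM, so its sums may rest largely on a single copy. The 15 epidermis marker copies had 2 higher and 0 lower at both stages. The 8 muscle marker copies summed to 48.0 and 183 CPM in nicd and 50.3 and 24.9 CPM in suh-dbm at st32.

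slc2a2.L, the glucose transporter of mammalian liver and kidney tubules, had 90.7 and 169 CPM in nicd, 112 and 180.0 CPM in suh-dbm and 126 and 184 CPM in uninjected explants at st32.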
